A study of Mus musculus with 6 samples.

Results

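Cytosolic ribosomal protein genes were read on 6 expression arrays of the RAW 264.7 line, mouse cells that resemble macrophages. Each of the 2 groups had 3 samples, harvested 48 h after transfection of 50 nM of a GapmeR, a short antisense strand with locked nucleic acid ends through which RNase H cuts the paired RNA. The Control group received one without a target, and the Mist-targeted group one against Mist, a macrophage long noncoding RNA. The cell line, the transfection and the dose were common to both groups, and each group rests on the 1 GapmeR the labels name for it. Genes were chosen by symbol: Rpl or Rps with a number, with or without the endings a, x, l or l1, together with Rplp0, Rplp1, Rplp2 and Rpsa. The platform annotation held 78 such genes, and 66 of them, out of 22180 genes in all, had a probe set listed with that gene alone. By symbol these are 42 genes of the large subunit and 24 of the small subunit, and RefSeq labels 2 of them, Rpl6l and Rps4l, as pseudogenes. Another 12 genes were found only on probe sets shared with other genes, and 8 further genes of that form in the RefSeq gene table were not analysed here. Where a gene had several probe sets of its own, that with the highest mean over the 6 arrays was read.

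A ribosome consists of a small subunit, which decodes the mRNA, and a large subunit, which forms peptide bonds and holds the exit tunnel of the growing chain, and each cytosolic ribosomal protein is a part of 1 of these subunits. The mRNAs of these proteins are among the most abundant of a growing cell and carry a 5′ terminal oligopyrimidine (TOP) tract, a C at the cap followed by a stretch of C and T. Through this tract the kinase complex mTORC1 and the RNA-binding protein LARP1 set how much of the mRNA is translated and stored, so that protein output can move without the mRNA level. The arrays measured mRNA levels only.

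The start sites are shown because the TOP tract is the sequence by which these mRNAs are known, although most of the annotated starts did not hold it. A RefSeq promoter window (GRCm38.p6) was matched for 51 of the 66 genes. A C at the annotated start followed by at least 4 further pyrimidines was found in 11 of the 51 (21.6%) and in 3.01% of all 27025 genes of the same table; annotated starts can lie some bases from the true cap site. A run of 8 or more pyrimidines that begins with a C within 10 bases of the start was found in 21 of the 51 (41.2%), against 9.43% of all genes. Both features were read on the transcribed strand only, and the first of them can lie inside the second. The letters CCGGAAG, the core of ETS family sites, were found on either strand of the 300-base window in 22 of the 51 genes (43.1%) and in 9.93% of all genes (a gene counts if any of its windows holds them), and AAGATGGC, a YY1 core, in 3 (5.88%) and 3.19%. The following lines give 10 bases before and 20 bases from the annotated start of 8 genes with the C start and 2 without, with the run of pyrimidines from the start in capitals. The windows lie at chr4:86857348-86857377 (minus strand, Rps6), chr2:39005112-39005141 (minus, Rpl35), chr14:18270967-18270996 (minus, Rpl15), chr17:27635225-27635254 (minus, Rps10), chr17:33955646-33955675 (minus, Rps18), chr11:114668570-114668599 (plus, Rpl38), chr7:141447641-141447670 (plus, Rplp2), chr3:90213629-90213658 (minus, Rps27), chr9:66946076-66946105 (plus, Rps27l) and chr12:66284382-66284411 (minus, Rpl10l).
Rps6: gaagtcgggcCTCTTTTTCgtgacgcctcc
Rpl35: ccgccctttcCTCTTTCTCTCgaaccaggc
Rpl15: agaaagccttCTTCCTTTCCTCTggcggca
Rps10: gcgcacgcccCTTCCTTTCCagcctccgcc
Rps18: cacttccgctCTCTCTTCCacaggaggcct
Rpl38: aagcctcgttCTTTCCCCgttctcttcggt
Rplp2: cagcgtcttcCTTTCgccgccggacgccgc
Rps27: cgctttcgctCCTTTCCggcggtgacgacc
Rps27l: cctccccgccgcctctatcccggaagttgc
Rpl10l: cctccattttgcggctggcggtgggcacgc
The tract runs over 13 bases in Rpl15 and 5 in Rplp2. The windows of Rps27l and Rpl10l hold no such tract at the annotated start, although that of Rps27l holds the ETS letters. The lack is not particular to symbols ending in l. Rplp0, Rps19 and Rps3 also had no C start, and Rpl32l had one.

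None of the 66 ribosomal protein genes passed the test for a difference between Mist-targeted and Control samples. At an adjusted p under 0.05 (limma, Benjamini-Hochberg over all 41345 probe sets) 0 rose and 0 fell, where 0.128% of all probe sets rose and 0.126% fell. Each difference is given in log2 units as the Mist-targeted mean less the Control mean. The 66 ran from -0.23 in Rps18 to 0.26 in Rpl34, with 31 above 0 and 35 below. The balance differed by the level of the probe set read. Of the 38 genes with a mean value of at least 8, 13 lay above 0 and 25 below (median -0.031), where all genes at that level had 1914 above and 1556 below. Of the 28 genes under 8, 18 lay above 0 and 10 below (median 0.062). All 22180 genes, at any level, had 11579 above and 10601 below. Brighter shared probe sets of the same genes could differ. Rpl34, read at 7.16, differed by 0.26, and by -0.041 on a shared probe set at 12.75. Rps27, read at 6.79, differed by 0.19, and by -0.049 on one at 11.62. Rplp2, read at 3.73, differed by 0.23, and by 0.0029 on one at 9.65. The genes share the arrays, so they are not independent, and whether the balance follows the level of the mRNA was not tested. Over all 66, their median was -0.012, beside 0.0057 over all probe sets, and the median size without sign was 0.077, beside 0.097. At an unadjusted p under 0.05 there was 1 gene, Rpl34, or 1.52% of the 66, beside 9.7% of all probe sets.

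These arrays also bounded each difference on the probe set that was read. The 95% interval of every one of the 66 genes lay inside a 1.5-fold change in either direction (±0.58), as it did for 83.5% of all probe sets and for 93.2% of the 22180 genes. Inside a narrower bound of ±0.32 in log2 units lay 31 of the 66 (47.0%) and 41.9% of the 22180 genes. The intervals are for 1 gene each and are not adjusted for their number. The lowest limit was -0.53 in Rps25, and the highest was 0.57 in Rpl17, which lies close to the bound. SEs ran from 0.075 to 0.18. Among the 38 genes with a mean value of at least 8 the median SE was 0.086. Among the 28 genes under 8 it was 0.12. Rps15, Rps16, Rplp2 and Rpl10l were read below the median of every array. Other genes were read far below a probe set that they share with other genes. Rpl26 was read at 5.89 beside a shared probe set at 12.29, and Rpl27a at 5.33 beside one at 11.76. Whether such low values follow the mRNA was not tested, so the bounds hold for the probe sets read. Of all 163 probe sets that name a gene of this form, shared ones included, 156 (95.7%) had an interval inside ±0.58.

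**Figure D1:**
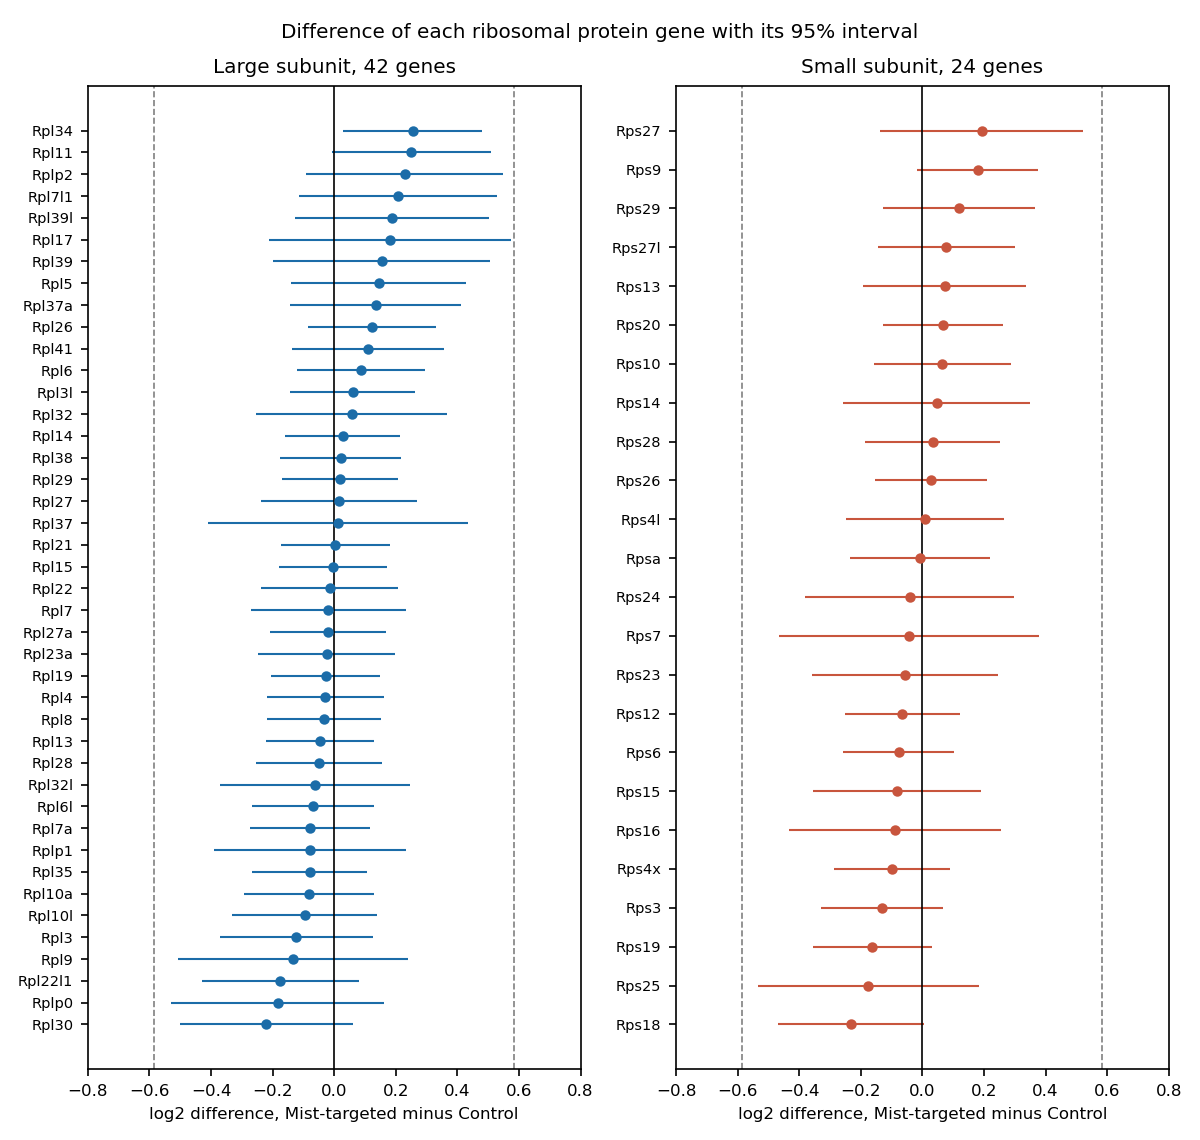
Log2 difference (Mist-targeted minus Control) of each of the 42 large subunit genes and 24 small subunit genes, with the 95% interval from limma (3 arrays per group); dashed lines mark a 1.5-fold change. Every interval lies between the dashed lines, and Rpl34 is the gene whose interval does not reach 0.

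The submitters' processing notes name RMA, which commonly includes a quantile step that damps a shift common to most transcripts. The deposited arrays were close to each other, with medians from 4.47 to 4.50, but not equal in distribution, and a further quantile normalization moved the median difference of the 66 genes from -0.012 to -0.0015. In bulk RNA, fewer cells of a type and less RNA per cell cannot be told apart. Pairs of arrays correlated at 0.986 to 0.991 over all probe sets, with the lowest values between groups. Of 10 macrophage markers, 9 had a mean value of at least 8 and the lowest was at 4.72, while the highest of the measured markers of T, NK and B cells, neutrophils, fibroblasts and epithelial cells was at 4.62. The annotation names no probe set Mist, so its own level was not analysed here.

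Array by array, the median of the 66 genes stayed close to 0 when each gene was set against its own mean. Single genes moved by more or less than that, with a range over the 6 arrays of 0.62 in Rps25 and 0.031 in Rpl15. The median deviation from a gene's mean over the 6 arrays was 0.013, -0.0072 and 0.0066 on Control replicates 1, 2 and 3, and -0.044, 0.0050 and 0.012 on Mist-targeted replicates 1, 2 and 3. The Mist-targeted replicate 1 array was the lowest of these, with 39 of 66 genes below their mean and 19 genes at their lowest value there; the medians of the other Mist-targeted arrays lay within the range of the Controls. Without that array the median difference of the 66 genes was 0.0083 in place of -0.012.

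**Figure D2:**
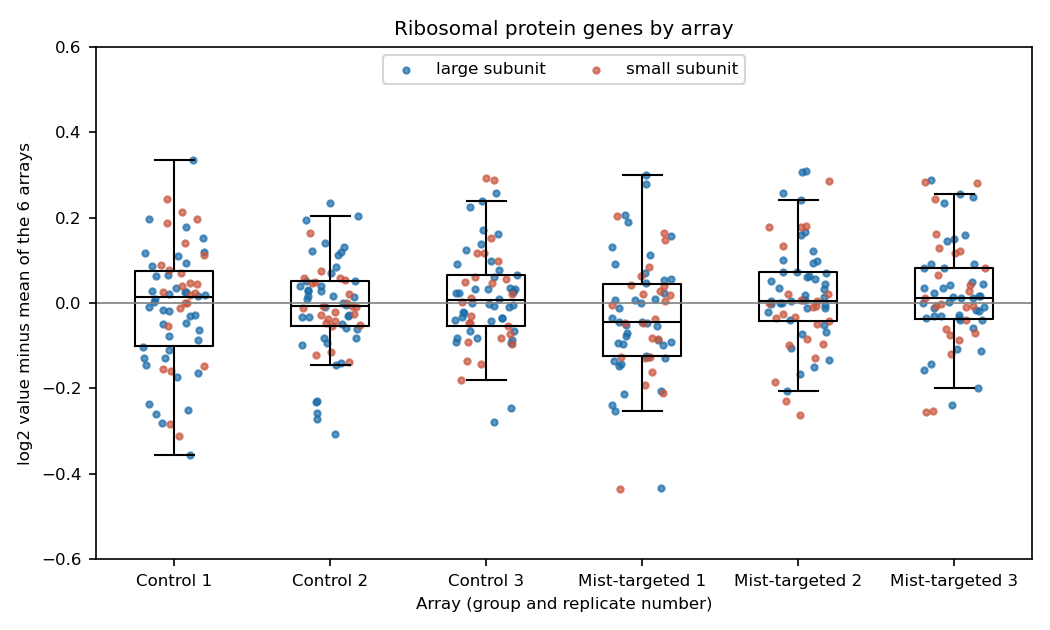
Each point is 1 ribosomal protein gene on 1 array, as its log2 value minus its mean over the 6 arrays (vertical axis), by group and replicate number (horizontal axis); boxes give median and quartiles, and whiskers reach the last point within 1.5 box lengths. The box of Mist-targeted replicate 1 is centred at -0.044, and those of the other 5 arrays lie between -0.0072 and 0.013.

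The groups did not overlap in 10 of the 66 genes, or 15.2%, which is close to the 15.9% of all probe sets. Among the 38 genes with a mean value of at least 8 it was 21.1%, beside 39.6% of all genes at that level. Higher on every Mist-targeted array, as were 8.2% of all probe sets, were Rpl34, Rpl11 and Rps9. Lower on every one, as were 7.72% of all probe sets, were Rps18, Rps19, Rps3, Rps4x, Rps6, Rpl35 and Rpl13. Rpl34, a large subunit protein, had Control values of 7.05, 6.89 and 7.16 and Mist-targeted values of 7.23, 7.33 and 7.31, a difference of 0.26 ± 0.097 (SE, n = 3 per group; limma, adjusted p = 0.44). Its lowest Mist-targeted value stood above the highest Control value by less than the Controls spread among themselves. Another probe set, shared by Rpl34 and its pseudogene copy Rpl34-ps1, differed by -0.041.

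Rps18, a protein of the small subunit head, had Control values of 8.38, 8.18 and 8.19 and Mist-targeted values of 8.09, 8.08 and 7.88. The difference was -0.23 ± 0.10 (SE; limma, adjusted p = 0.53), all Mist-targeted values lying below all Controls. The other probe sets of Rps18 stood on the other side of 0, and the mean of all 3 probe sets differed by 0.0020. Rps19, the gene most often mutated in Diamond-Blackfan anaemia, read 9.87, 9.88 and 9.90 in Control and 9.67, 9.67 and 9.81 in Mist-targeted samples (-0.16 ± 0.083; limma, adjusted p = 0.61). Its Control values lay within an SD of 0.014 and its Mist-targeted values within 0.081; a second probe set of its own has the same 6 values, and the remaining one differed by -0.029. Rps9, a small subunit protein bound early in assembly, read 9.01, 9.11 and 9.09 in Control and 9.22, 9.34 and 9.19 in Mist-targeted samples (0.18 ± 0.085; limma, adjusted p = 0.57), with its second probe set also above 0 at 0.081.

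Rps6, the small subunit protein phosphorylated by the S6 kinases downstream of mTORC1, had one of the smaller SEs, 0.077. It read 12.99, 13.02 and 13.02 in Control and 12.93, 12.98 and 12.90 in Mist-targeted samples. The difference of -0.077 had a 95% interval from -0.26 to 0.10 (limma, adjusted p = 0.84), and it was -0.020 after a further quantile normalization of the arrays. The groups were separate by less than the SD of either of them. Rps3, which lies at the mRNA entry of the small subunit and also acts in DNA repair, read 9.29, 9.28 and 9.42 in Control and 9.14, 9.25 and 9.20 in Mist-targeted samples (-0.13 ± 0.085; limma, adjusted p = 0.71). The small subunit head, with 11 of its 14 listed proteins measured, had differences between -0.23 and 0.12 (4 above 0 and 7 below), and 0 were called.

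**Figure D3:**
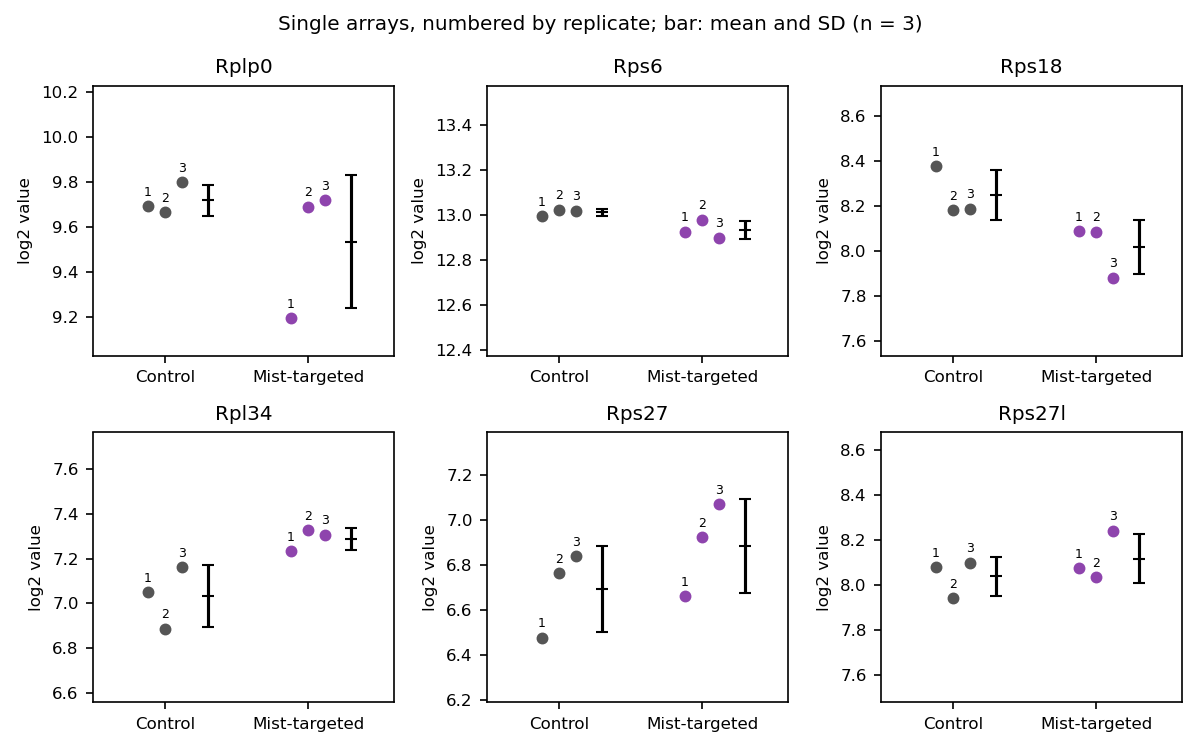
Log2 values (vertical axes, each spanning 1.2 units) of 6 ribosomal protein genes on the 3 Control and 3 Mist-targeted arrays, each point labelled with its replicate number; bars give the mean and SD (n = 3). Rplp0 is low on Mist-targeted replicate 1 only (9.19 against 9.69 and 9.72), Rps6, Rps18 and Rpl34 have separate groups, and Rps27 and Rps27l overlap.

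Among large subunit proteins, the P stalk recruits the elongation factors. Rplp0, its base and a common reference gene in quantitative PCR, read 9.69, 9.67 and 9.80 in Control and 9.19, 9.69 and 9.72 in Mist-targeted samples. The difference of -0.18 ± 0.15 (SE; limma, adjusted p = 0.78) came with 1 low array, Mist-targeted replicate 1, and was -0.014 without it. The other probe set of Rplp0, at a mean of 5.34, differed by -0.35. Rplp1, which sits on Rplp0 as a dimer with Rplp2, differed by -0.079 ± 0.13, with values of 11.59, 11.87 and 11.91 against 11.50, 11.87 and 11.76. Its other probe set, at a mean of 6.77, differed by 0.20, and the mean of both differed by 0.063. Rplp2 was read at 3.45, 3.64 and 3.76 in Control and 3.92, 3.60 and 4.02 in Mist-targeted samples, below the median of every array (0.23 ± 0.14; limma, adjusted p = 0.68). Another probe set, listed for both Rplp2 and the small nucleolar RNA Snora52, differed by 0.0029. Rpl12, at the foot of the stalk, was present on 3 shared probe sets only, with differences of -0.024, -0.017 and -0.027.

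Rpl5 and Rpl11 form with 5S rRNA the particle that binds Mdm2 and so stabilizes p53 when ribosome assembly is disturbed. Rpl11 read 4.34, 4.56 and 4.50 in Control and 4.62, 4.90 and 4.64 in Mist-targeted samples (0.25 ± 0.11; limma, adjusted p = 0.53), at about the array median. Rpl5 differed by 0.14 ± 0.12 on its own probe set, whose groups overlapped. On the probe set shared with the pseudogene Rpl5-ps2 it read 10.16, 10.07 and 9.99 in Control and 9.77, 9.80 and 9.67 in Mist-targeted samples (-0.33 ± 0.088; limma, adjusted p = 0.22). This was the smallest unadjusted p (0.0061) among the 163 probe sets that name any of these genes, and the probe sets of Rpl5 differed in sign. Which of the transcripts each of them measured was not tested.

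Rpl10, which completes the large subunit at the end of its maturation, was likewise read only on shared probe sets, and that with the highest mean differed by -0.020. Rpl23, another Mdm2-binding protein, differed by -0.0053 on the highest of its shared probe sets. Rpl13a, known for silencing inflammatory mRNAs in myeloid cells once released from the ribosome, appeared only with other genes, 3 of its 4 probe sets with an intronic small nucleolar RNA, and differed by -0.14, 0.16, -0.045 and -0.14. Rpl38, linked to the translation of Hox mRNAs, read 10.72, 10.71 and 10.85 in Control and 10.72, 10.80 and 10.82 in Mist-targeted samples (0.021 ± 0.085). Rpl7a differed by -0.078 ± 0.084 on the probe set read here, by -0.079 and 0.11 on its others, and by -0.017 over the mean of them. Rpl30, read at a mean of 5.17, differed by -0.22 ± 0.12, the lowest value of the large subunit. Its shared probe sets, at means of 11.03, 10.19 and 6.68, differed by -0.063, -0.054 and -0.097. Of the 7 proteins around the exit tunnel 6 were measured, and their differences ran from -0.079 to 0.18.

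In the rest of the small subunit, Rpsa, also described as a laminin receptor, read 11.96, 11.80 and 11.80 in Control and 11.81, 11.75 and 11.97 in Mist-targeted samples (-0.0092 ± 0.097), with each group reaching into the other. Rps26, which contacts the mRNA just upstream of the start codon, differed by 0.028 ± 0.078, with a 95% interval from -0.15 to 0.21. Rps14, lost in the 5q- syndrome of human bone marrow, was read near the array median (0.047 ± 0.13). Rps15 and Rps16 were read below the median of every array, at means of 3.15 and 3.45, and differed by -0.082 and -0.089. For Rps16 a probe set shared with a pseudogene copy and a predicted gene differed by -0.0093. Of the 19 genes listed for Diamond-Blackfan anaemia 14 were measured, with 9 differences above 0 and 5 below, a median of 0.031 and 0 called.

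The 10 genes with a symbol ending in l, l1 or x, which mark copies or linked forms of a ribosomal protein, were set beside the gene they are named for. None of the 10 was called, and their differences lay between -0.18 and 0.21. Rps27l, a close copy of Rps27 that p53 activates, read 8.08, 7.94 and 8.10 in Control and 8.07, 8.04 and 8.24 in Mist-targeted samples (0.077 ± 0.095; limma, adjusted p = 0.88). Rps27 itself read 6.48, 6.76 and 6.84 in Control and 6.66, 6.92 and 7.07 in Mist-targeted samples (0.19 ± 0.14), and a further probe set shared with Rps27rt differed by -0.049. In both genes the groups overlapped.

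Rpl22l1, the copy whose mRNA Rpl22 represses, differed by -0.18 ± 0.11 and Rpl22 by -0.015 ± 0.096. Rpl39l differed by 0.19 ± 0.14 and Rpl39 by 0.15 ± 0.15, Rpl7l1 by 0.21 ± 0.14 and Rpl7 by -0.019 ± 0.11. Rpl3l, a form of heart and skeletal muscle, was at 4.47, near the array median, and differed by 0.060 ± 0.086; Rpl3 differed by -0.12 ± 0.11. Rpl10l, a testis form, was below the median of every array and differed by -0.096 ± 0.10. Rps4x, the X-linked form of Rps4, read 10.75, 10.70 and 10.83 in Control and 10.62, 10.68 and 10.67 in Mist-targeted samples (-0.099 ± 0.081). Rps4l, which RefSeq lists as a transcribed pseudogene, differed by 0.0090 ± 0.11. Rpl6l, which RefSeq lists as a pseudogene, differed by -0.069 ± 0.085 and Rpl6 by 0.087 ± 0.089, and Rpl32l by -0.062 ± 0.13 and Rpl32 by 0.056 ± 0.13. All these groups overlapped except those of Rps4x.

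Many ribosomal protein genes have processed pseudogenes and several probe sets, so the reading of a gene was set against all probe sets that carry its name. There were 163, of which 106 were listed with 1 gene alone and 57 with several. Among them 0 rose and 0 fell (limma), and differences ran from -0.56 to 0.31. An unadjusted p under 0.05 was found in 6 (3.68%), beside 9.7% of all probe sets. Of the 24 genes with more than 1 probe set of their own, all probe sets differed upwards in 8, all downwards in 10, and in both directions in 6. Rpl4, a core large subunit protein, had the widest spread, with -0.029 on the probe set read here and -0.39 ± 0.27 (SE) on the other. That other probe set read 9.26, 9.10 and 9.23 in Control and 9.19, 9.14 and 8.09 in Mist-targeted samples, so it was low on Mist-targeted replicate 3 only. Rpl41, the smallest ribosomal protein, had 5 probe sets, and all of them were above 0, from 0.069 to 0.31. Each of them had its highest value on Mist-targeted replicate 3. Of the 106, 10 held the same 6 values as another probe set of the same gene (6 of Rps12 among them are 1 set of values), which makes them repeats and not further evidence.

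**Figure D4:**
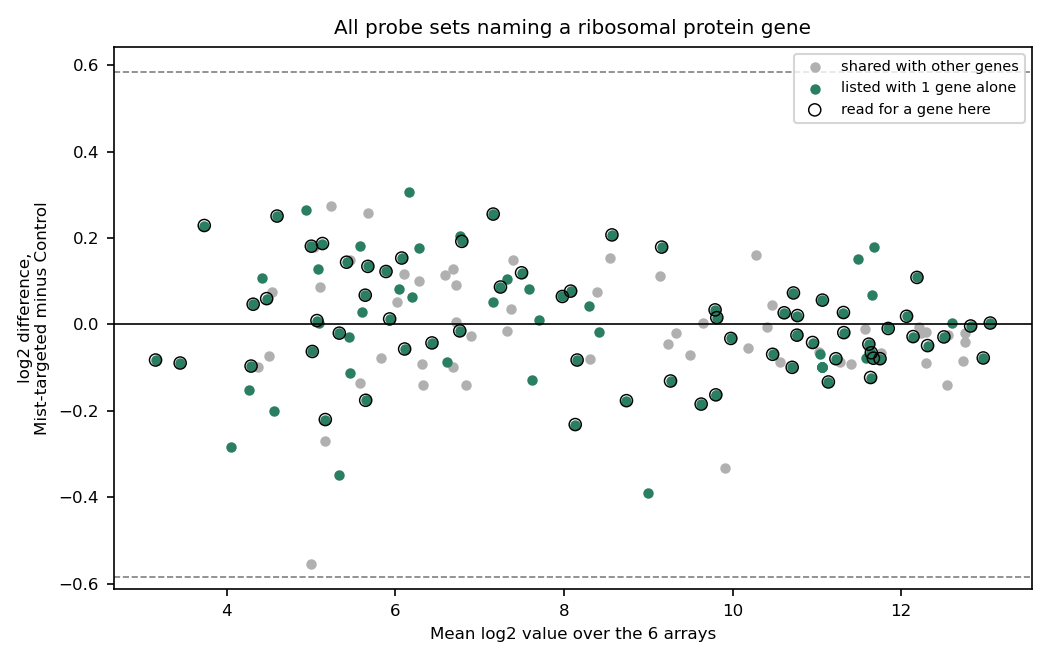
Log2 difference (vertical axis) against the mean log2 value over the 6 arrays (horizontal axis) for the 163 probe sets naming a ribosomal protein gene; green points are listed with 1 gene, grey points with several, and rings mark the 66 read here. Dashed lines mark a 1.5-fold change, and no point lies beyond them; the lowest, at -0.56, is shared by Rpl21 and 5 predicted genes.

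Genes with a C at the annotated start did not stand on 1 side. The 11 genes with this C start had differences from -0.23 to 0.23 (5 above 0 and 6 below, median -0.0035). The 40 matched genes without it ran from -0.18 to 0.26 (median -0.017). Since annotated starts can lie some bases from the true cap site, genes without a C start may still carry a TOP tract. The split therefore cannot set TOP mRNAs against others. Other genes of translation were read from fixed lists. Of cytosolic ribosomal proteins under other symbols, Fau and Rps3a1 differed by 0.015 and 0.020. Of 7 genes listed as elongation factors, Eef1e1 among them by its symbol only, 0 were called, with Eef2 at -0.16 ± 0.099 and Eef1b2 at -0.15 ± 0.11. Of 29 initiation factors and other TOP-type mRNAs 0 were called, with 12 above 0 and 17 below; the poly(A)-binding protein gene Pabpc4 differed by -0.30 ± 0.11 (limma, adjusted p = 0.41) and Eif3c by -0.16 ± 0.076.

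Of 11 genes that control TOP mRNAs 0 were called. Eif4ebp1, the translation repressor that mTORC1 phosphorylates, went from a mean of 10.25 to 9.75 (-0.50 ± 0.087; limma, adjusted p = 0.082), and Larp1, which binds the TOP tract, from 9.92 to 10.21 (0.29 ± 0.090; limma, adjusted p = 0.32). Of 12 measured genes listed as chaperones and importers of ribosomal proteins, Znhit3 among them by the list only, 0 were called. Tsr2, the escort of Rps26, differed by 0.35 ± 0.076 (limma, adjusted p = 0.16) and Znhit3 by 0.34 ± 0.12. The 71 mitochondrial ribosomal protein genes, which serve the ribosome of the organelle, stood above 0 in 50 cases and under it in 21. All 22180 genes with a probe set of their own had 11579 above 0 and 10601 below. The 71 had a median of 0.049, in a range from -0.25 to 0.36, and they share the arrays, so they are not independent. At an unadjusted p under 0.05 (limma) there were 7 of the 71 (9.86%), beside 9.7% of all probe sets. None of the 71 was called; Mrps7 differed by 0.36 ± 0.10 (limma, adjusted p = 0.25) and Mrpl40 by 0.33 ± 0.11.

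Introns of ribosomal protein genes also hold small nucleolar RNAs, which guide modifications of rRNA. RefSeq coordinates placed 58 such genes inside a gene of this family, and 18 had a probe set of their own. None of the 18 was called, with 8 above 0 and 10 below and a median of -0.067. Their median SE, 0.15, was wider than the 0.099 of the 66 genes, and 10 of the 18 had a 95% interval inside 1.5-fold. Snord16a, in Rpl4, differed by -0.34 ± 0.15 (limma, adjusted p = 0.52) and Snora62, in Rpsa, by 0.20 ± 0.093.

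**Figure D5:**
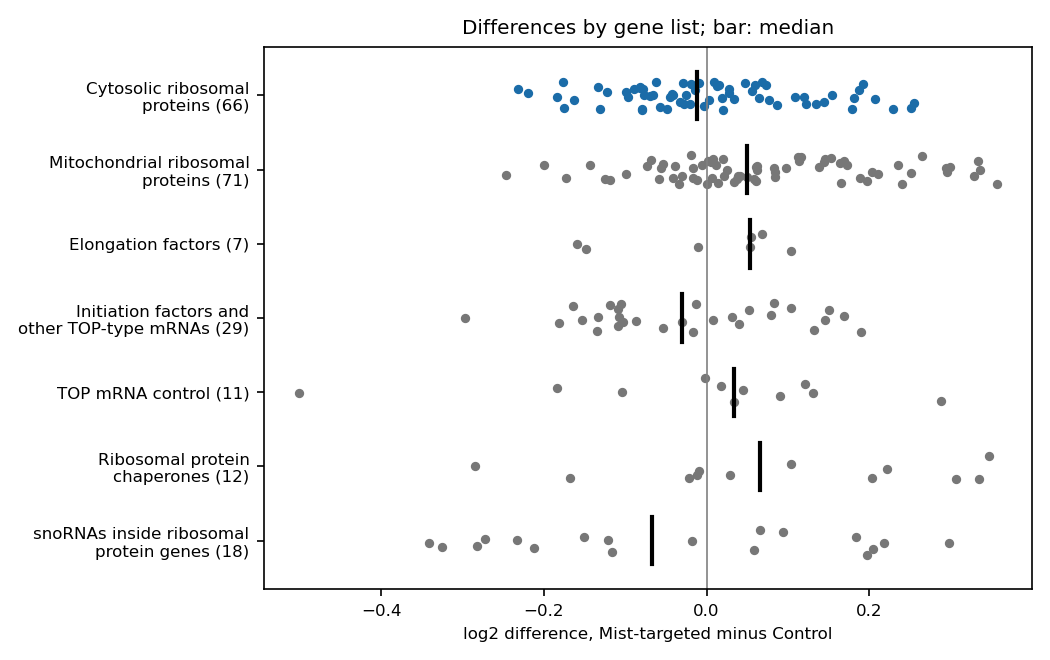
Log2 difference (horizontal axis, Mist-targeted minus Control) of each measured gene by list, with the number of genes in parentheses and a bar at the median. The 66 cytosolic ribosomal protein genes lie between -0.23 and 0.26 around a median of -0.012, and the 71 mitochondrial ones between -0.25 and 0.36 around 0.049.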

How the data were processed

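Per the labels, total RNA of 6 samples was labelled with biotin for Affymetrix arrays. Per the submitters' processing notes, which give no version or setting, the authors used RMA and Partek; the deposited log2 expression values, 1 per probe set and array, were taken as they are. Of 41345 probe sets, 23521 had 1 gene in the platform annotation, 1814 had several and 16010 were not listed. All probe sets were fitted together with limma 3.58.1 (R 4.3.3), by lmFit with a term for group and then eBayes (prior degrees of freedom 3.48); tests were two-sided, Benjamini-Hochberg adjustment ran over every probe set, and the code was tested on simulated data. With 3 samples per group, p = 0.1 is the smallest value of an exact permutation test. The labels do not call replicates separate cultures, so the p-values reflect only how far these samples spread, possibly for technical reasons. Members and lists were chosen with earlier results of these data known. The named genes are the 10 smallest p, the 3 highest and 3 lowest differences, the genes ending in l, l1 or x with their partners, and a fixed set of well-known members; of each other list, the 2 smallest p. Further genes (Rps15, Rps16, Rps25, Rpl4, Rpl17, Rpl35, Rpl13, Rpl41) and those on shared probe sets were chosen after their values were seen. The gene table gives no strand, so the plan to match small nucleolar RNAs to hosts by strand could not be kept. As alternatives, the fit was repeated with a term for replicate number, with other variance models, filters, scalings and array weights, with the mean of a gene's probe sets, and without each array. Tables and plots were made in Python 3.11.15 (pandas 2.3.3, matplotlib 3.10.9).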

Additional observations from a re-analysis of the deposited data

How the results depend on the processing

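No ribosomal protein gene was called, higher or lower, under any of the 15 alternatives to the limma fit or over every probe set naming one, an alternative chosen after seeing the data. At an unadjusted p under 0.05 there were 0 to 5 genes, the 5 without moderation of the variance and 3 with the replicate block. The median difference stayed between -0.019 and 0.0083, each value nearer to the -0.012 of the full data than the SD between arrays (0.023), and its sign changed when Control replicate 1, Mist-targeted replicate 1 or Mist-targeted replicate 2 was left out and with the mean of all probe sets. The count of genes with a 95% interval inside 1.5-fold was 65 with trend and robust, 62 of 63 without the dimmest 40% of probe sets, 55 without moderation and 58 to 61 with 1 array left out. Of 34 named genes 24 kept their sign in all alternatives; Rps18 moved most for its spread, from -0.23 to 0.0020 with the mean of its probe sets. Deviations of same-numbered arrays correlated over all probe sets at 0.20, 0.096 and 0.033, and those of arrays with different numbers at -0.15 to 0.060. Since 0.033 lay inside that range and the other values above it, the numbers were not treated as pairs throughout. Over the 66 genes alone, same-numbered arrays correlated at 0.66, 0.30 and 0.27. With the replicate block 0 genes were called and 66 intervals lay inside 1.5-fold. The SEs given for single genes come from the fit without that block. Without the arrays' background, no floor could be set for the genes read below the array medians.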

Other observations

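The arrays numbered 1 in the titles shared a pattern in these genes. In 25 of the 66 genes (37.9%) Control replicate 1 and Mist-targeted replicate 1 both lay above (12) or both below (13) the other 4 arrays, which was so for 18.8% of all probe sets and for 15.8% of genes with a mean value of at least 8. For the arrays numbered 2 the count was 11 (16.7%, beside 13.5% of all probe sets) and for those numbered 3 it was 7 (10.6%, beside 11.1%). Across the 66 genes, which share the arrays and so are not independent, the deviations of the 2 arrays numbered 1 from their group means correlated at 0.66, those numbered 2 at 0.30 and those numbered 3 at 0.27. Rpl9, a large subunit protein chosen after its values were seen, read 11.47, 11.09 and 11.05 in Control and 11.34, 10.97 and 10.90 in Mist-targeted samples, high on both arrays numbered 1. Rplp1 was low on both (11.59 and 11.50). The labels do not say what a number stands for, and its part in these values was not tested.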
